A study of Mus musculus with 8 samples.

Results

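The genes described here are 51 genes of DNA replication and S phase, chosen by name for what they do, with earlier results of these data known. They make up 51 of the 53465 genes in the count table, each was found there once by its symbol, and all 51 were among the 14301 genes that passed a filter on low counts and were tested. In mouse pancreatic ductal adenocarcinoma (PDAC) cells, many of these mRNAs were lower after 24 h of TGFβ1 than after 24 h of an inhibitor of the TGFβ receptor. In cells with restored *Smad4*, 33 of the 51 were lower and 0 higher, where 17.6% of all tested genes were lower. In cells with silenced *Smad4*, 9 were lower and 0 higher, where 6.24% of all tested genes were lower. Between Smad4 on and Smad4 off under TGFβ1, 1 member was lower and 0 were higher, beside 3.28% lower and 3.52% higher over all genes. Under the inhibitor 0 differed, beside 0.622% lower and 0.972% higher. Counts this small cannot be told apart from those shares.

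Before a cell divides it must copy its genome once and only once. In G1 the origin recognition complex, CDC6 and CDT1 load the MCM2 to MCM7 helicase onto origins, and at the start of S phase CDC45 and the GINS complex join it, polymerases start at the primed origins, and geminin blocks a second loading. E2F factors, released when cyclin and CDK activity phosphorylates the retinoblastoma protein, switch on many of these genes together in late G1, and TGFβ is a classical signal that holds epithelial cells in G1, partly through SMAD2, SMAD3 and SMAD4.

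The samples were 8 RNA-seq libraries from 2 PDAC cell lines, B73 and B87. Each line was derived from the pancreatic tumor of a mouse whose engineered alleles included a doxycycline (Dox)-inducible short hairpin RNA against *Smad4* that was restricted to the pancreas. All groups share the alleles of their line. Smad4-off cells stayed on Dox. Smad4-on cells had been without Dox for 5 days before plating, and treatment began 24 h after plating. Dox and Smad4 state thus always changed together, and their effects cannot be told apart. Each state was treated for 24 h with 100 pM recombinant mouse TGFβ1 or with 2.5 µM SB505124, which blocks the kinase of the TGFβ type I receptor, and there was no untreated group. Every TGFβ1 response below is thus relative to SB505124, and less mRNA with TGFβ1 cannot be told apart from more mRNA with the inhibitor. Each of the 4 groups thus held 2 libraries, 1 per line, and a line stands for 1 tumor. Animal ages are not given in the sources used here for these lines.

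The *Smad4* counts matched the labels: the gene was at 33.7 to 35.5 CPM in the 4 Smad4-off libraries and at 97.4 to 117 CPM in the 4 Smad4-on libraries. CPM adjusts the counts for library size, with TMM factors that allow for a few strongly changed genes. Library totals lay between 18389235 and 23440550 counts, and the members had between 32 and 13349 counts in a library. Of 4 immune markers, *Ptprc*, *Cd3e* and *Adgre1* had 3 counts or fewer in every library and *Cd68* had 23 to 126. Of 4 acinar markers, *Cpa1*, *Prss1* and *Amy2a5* were at 0 and *Cela1* at 8 to 32 counts. Of 3 endothelial markers, *Pecam1* had 5 counts or fewer, *Cdh5* 0 to 54 and *Kdr* 7 to 506, and of 5 fibroblast markers *Lum* and *Dcn* had 3 or fewer and *Pdgfra* 12 to 154. *Epcam* was nearly absent too, at 3 to 39 counts, whereas the ductal keratin genes *Krt8*, *Krt18* and *Krt19* were abundant. The other ductal markers varied widely, *Krt7* from 293 to 13461 counts and *Cdh1* from 225 to 8673. *Cdh1* was lowest in Smad4-on B87 with TGFβ1. *Krt7* had 293 to 577 counts in the B87 libraries and 9295 to 13461 in the B73 libraries. The summed 5 fibroblast markers moved with treatment, line and Smad4 state, from 3.04 to 31.1 CPM in Smad4-off SB505124 libraries to 8.88 to 631 CPM in Smad4-on TGFβ1 libraries, nearly all of it *Col1a1* in B87. The summed endothelial markers were higher with TGFβ1 too, at 7.24 to 26.003 CPM against 2.15 to 5.14 CPM in Smad4-off cells and at 3.32 to 4.64 CPM against 0.648 to 2.66 CPM in Smad4-on cells. The summed immune markers were at 1.33 to 1.48 CPM in Smad4-on TGFβ1 libraries and at 2.09 to 6.29 CPM in the others. The part of these markers in the results below was not tested. The 6 ductal markers ranged from 1170 to 5722 CPM in Smad4-on TGFβ1 libraries, and the lower value was that of B87.

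Because many of these genes are classical E2F targets, their promoters were read for E2F sites. RefSeq promoter sequences (250 bases before to 50 bases after the start, build GRCm38.p6) were on hand for 39 of the 51 genes. A perfect E2F word, TTTGGCGC, TTTCGCGC, TTTCCCGC or TTTGCCGC on either strand, occurred in 18 of these 39 genes (46.2%), against 704 of 27025 genes with a promoter in the same table (2.60%). Some words share letters with each other's reverse complement, and a match describes the letters only. The word was present in 15 of the 26 matched genes that were lower with TGFβ1 in Smad4-on cells and in 3 of the 13 others. The CCAAT word was in 25 of 39 (64.1%, against 41.1% of all genes), and TTTGAA, the core of the cell cycle homology region found at G2/M genes, was in 7 of 39 (17.9%, against 20.2%). The following 60-base stretches are shown because they belong to genes described below, with the E2F word in capitals. Each lies before the RefSeq start that its promoter was read from and outside the exons of GENCODE M21. Those of *Cdc6* and *Uhrf1*, the second of which has 2 promoters in the table, lie inside the gene as the count table bounds it. *Casp8ap2*, like *Gins3* and *Rfc3*, has a perfect word and was not among the genes that were lower.
*Mcm5*, chr8:75109334-75109393, + strand: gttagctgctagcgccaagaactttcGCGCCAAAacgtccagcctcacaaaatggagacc
*Mcm6*, chr1:128359719-128359778, − strand: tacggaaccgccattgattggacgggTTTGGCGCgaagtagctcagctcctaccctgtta
*Cdc6*, chr11:98907987-98908046, + strand: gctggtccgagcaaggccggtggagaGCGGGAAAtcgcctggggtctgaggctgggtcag
*Pola1*, chrX:93632260-93632319, − strand: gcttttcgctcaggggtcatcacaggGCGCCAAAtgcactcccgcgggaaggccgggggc
*Uhrf1*, chr17:56304102-56304161, + strand: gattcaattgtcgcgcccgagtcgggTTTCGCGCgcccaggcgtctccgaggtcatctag
*Casp8ap2*, chr4:32615268-32615327, + strand: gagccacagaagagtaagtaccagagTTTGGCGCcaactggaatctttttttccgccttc

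As a set, the 51 genes were lower with TGFβ1 in both lines and both Smad4 states. The mean log2 CPM over the members was 6.11 (Smad4 off) and 6.10 (Smad4 on) in B73 under SB505124, and 5.84 and 5.81 under TGFβ1. In B87 it was 6.37 and 6.30 under SB505124, and 5.81 and 5.51 under TGFβ1. All 4 TGFβ1 libraries were therefore below all 4 SB505124 libraries, and the lowest of the 8 was B87 with *Smad4* restored. Expressed as a geometric mean relative to the Smad4-off SB505124 library of the same line, the set was at 83.02% and 81.2% under TGFβ1 in B73 and at 67.7% and 55.0% in B87. These mRNAs can be lower in bulk RNA because fewer cells were in S phase or because each cell held less, and the 2 cannot be told apart here. Gene by gene, 34 of the 51 had all 4 TGFβ1 libraries below all 4 SB505124 libraries (background 13.5% of tested genes) and 0 had them above, as the heat map of the members shows.

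**Figure D1:**
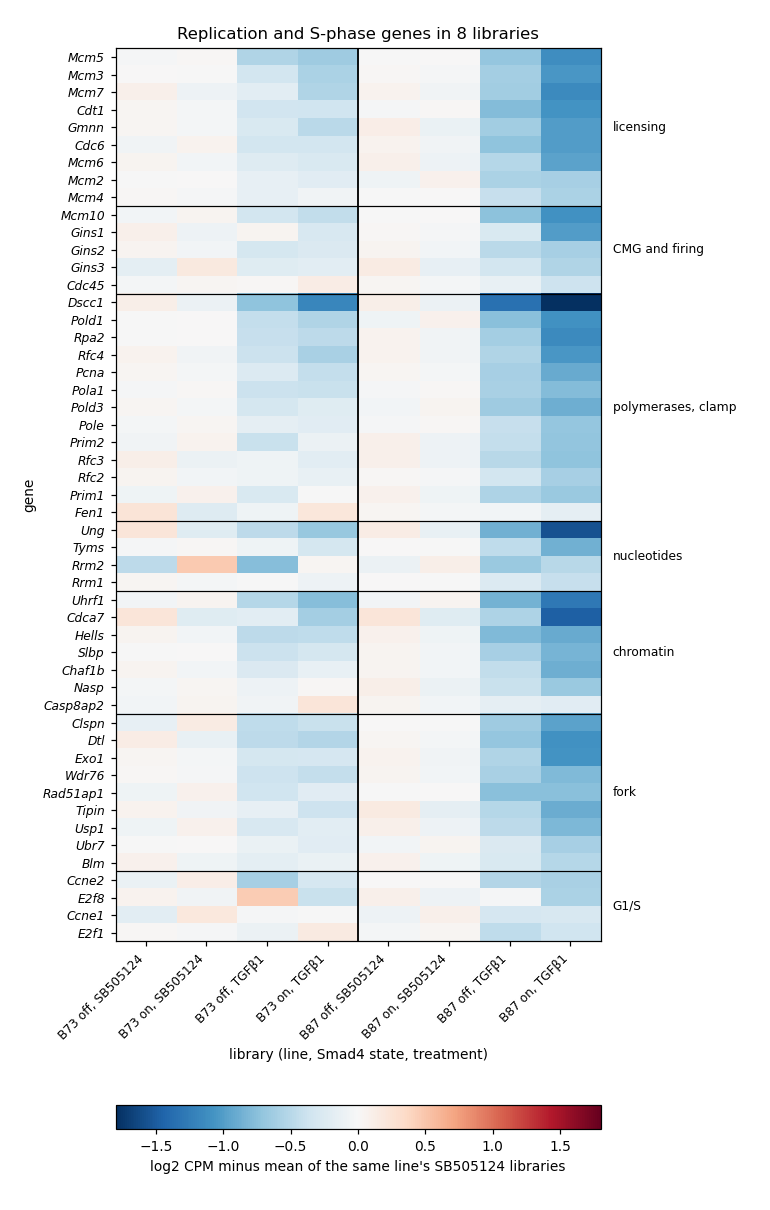
Heat map of the 51 genes (rows, grouped by role and sorted by their TGFβ1 response in Smad4-on cells) in 8 libraries (columns, B73 left and B87 right of the line). Color is log2 CPM minus the mean of the SB505124 libraries of the same line. In B87, 51 of 51 genes are below 0 in both TGFβ1 libraries, and in B73 48 (Smad4 off) and 45 (Smad4 on) are. The deepest value is *Dscc1* in Smad4-on B87 at −1.81.

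The first question was how TGFβ1 and SB505124 differed where *Smad4* was present. In Smad4-on cells, 33 members were lower and 0 higher at an adjusted p under 0.05 (edgeR quasi-likelihood test with the line in the model, Benjamini-Hochberg adjustment over 14301 genes). Of all genes tested, 17.6% were lower and 15.6% higher. Most changes were moderate, the median over the members being −0.54 on the log2 scale (all genes −0.02) and quartiles of −0.71 and −0.38. Only *Dscc1* and *Uhrf1* passed the 2-fold rule of the study, 2 of 51 against 8.31% of all genes. The count of 33 rested on the line B87: it was 6 without the B87 SB505124 library and 7 without the B87 TGFβ1 library of these cells, 22 without the B73 SB505124 library and 40 without the B73 TGFβ1 library. In these 4 fits the background of lower genes was 9.81%, 10.1%, 10.7% and 10.7%, and 46 to 51 of the 51 estimates were below 0. With no replicate block, that is without the pairing of libraries by line, 14 were lower.

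In Smad4-off cells 9 members were lower and 0 higher, beside 6.24% and 6.96% of all genes. They were *Mcm5*, *Dscc1*, *Rfc4*, *Pola1*, *Uhrf1*, *Hells*, *Dtl*, *Wdr76* and *Ccne2*, and each of them was also lower in Smad4-on cells. The estimates were below 0 for 50 of the 51 members, with a median of −0.45 (all genes −0.02), and only *Dscc1* passed 2-fold (background 2.82%). The number that passed was not stable when a library was left out. It fell in some of these fits, where the share of all genes fell as well, and rose in others. With 1 library left out, 46 to 51 of the 51 estimates were below 0. With no replicate block 0 members were lower, beside 0.601% of all genes. At an unadjusted p under 0.05, 33 members were lower here and 38 in Smad4-on cells. The share of all genes at that level was not counted, here or below, except for the line difference in the TGFβ1 response.

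**Figure D2:**
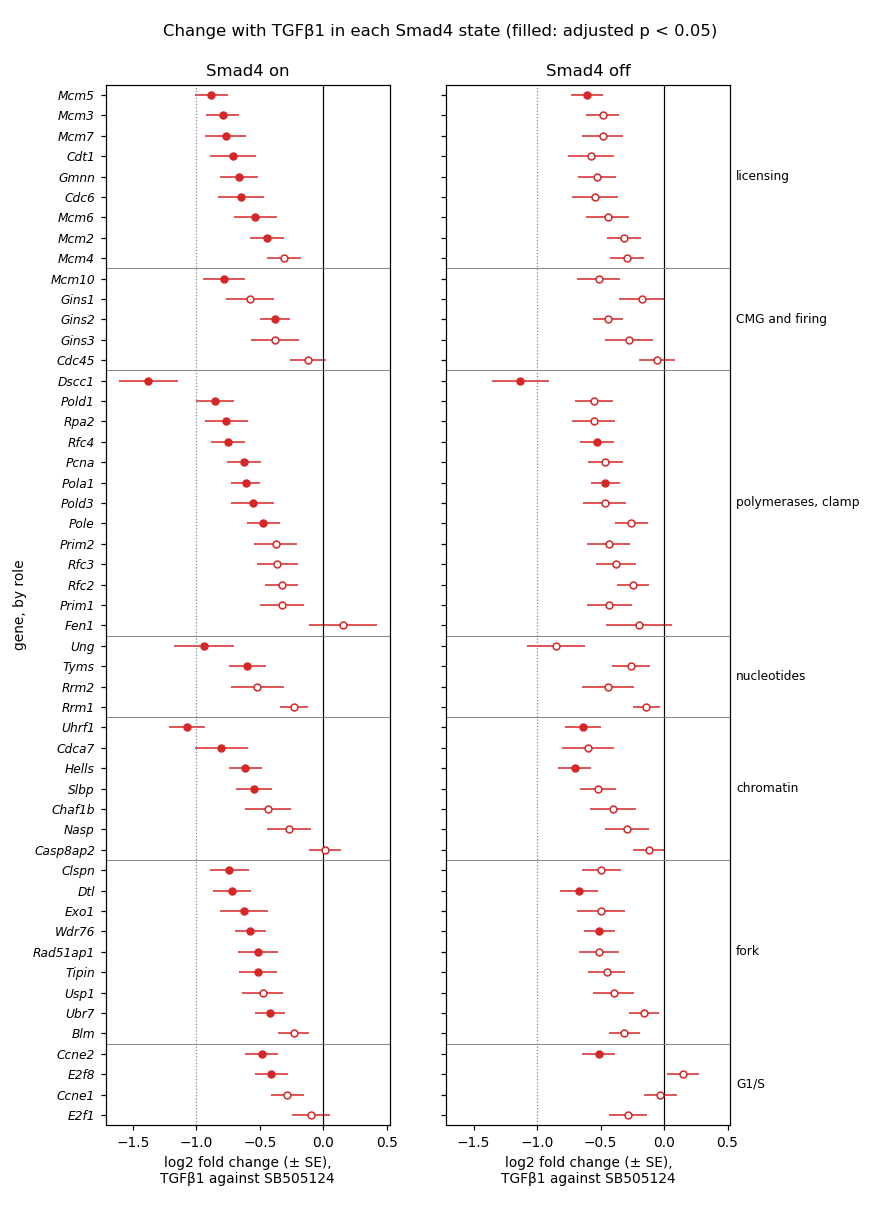
Log2 fold change of each gene with TGFβ1 against SB505124 (x axis, point with its SE) in Smad4-on (left) and Smad4-off cells (right), ordered by role. Filled points have an adjusted p under 0.05, 33 on the left and 9 on the right, and the dotted line marks a 2-fold fall. Nearly all points lie below 0 in both panels.

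Of the 9 genes of origin licensing, 8 were lower with TGFβ1 in Smad4-on cells, where 17.6% of all genes were. The ninth, *Mcm4*, had an estimate of −0.31 (adjusted p = 0.122). *Mcm5* stood at 241 (B73) and 249.6 (B87) CPM in Smad4-off and 248 and 251 CPM in Smad4-on cells under SB505124, and at 168 and 155 and at 157 and 116 CPM under TGFβ1. The subunit MCM5 sits in the helicase ring beside MCM2, and its mRNA was lower in all 4 TGFβ1 libraries than in any SB505124 library, −0.88 ± 0.13 on the log2 scale in Smad4-on cells (SE, edgeR adjusted p = 0.00265) and −0.61 ± 0.13 in Smad4-off cells (adjusted p = 0.0243). Under SB505124, *Mcm2* was at 244 and 286 CPM in Smad4-off and 245 and 317 CPM in Smad4-on cells of B73 and B87, against 221 and 204 CPM and 213 and 198 CPM under TGFβ1. Its groups did not overlap either, but the fall was smaller (log2 −0.44 ± 0.13, adjusted p = 0.0429). *Mcm3* ran at 297 and 310.4 CPM (Smad4 off) and 291 and 303 CPM (Smad4 on) under SB505124 in B73 and B87, and at 235 and 201 CPM and 198 and 148 CPM under TGFβ1. Levels of *Mcm7* in B73 and B87 were 245 and 302 CPM (Smad4 off) and 216 and 278 CPM (Smad4 on) with SB505124, then 202 and 189 CPM and 158 and 131 CPM with TGFβ1. These further ring subunits were also lower in Smad4-on cells, by log2 fold changes of −0.79 (adjusted p = 0.00456) and −0.77 (adjusted p = 0.0118). *Mcm6* was lower by less (log2 −0.54, adjusted p = 0.0484), so that the 6 ring subunits, which act in equal numbers, spanned log2 fold changes from −0.88 to −0.31.

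The loading factors moved with the ring. Under SB505124, *Cdc6* was at 53.7 and 74.1 CPM in Smad4-off and 58.1 and 67.3 CPM in Smad4-on cells of B73 and B87, against 44.7 and 42.5 CPM and 44.4 and 35.2 CPM under TGFβ1. CDC6 opens the way for MCM loading, and its mRNA was lower with TGFβ1 in every pair of libraries (log2 −0.65 ± 0.18 in Smad4-on cells, adjusted p = 0.0319). *Cdt1* ran at 69.5 and 77.6 CPM (Smad4 off) and 66.7 and 79.4 CPM (Smad4 on) under SB505124 in B73 and B87, and at 53.3 and 45.6 CPM and 52.9 and 37.2 CPM under TGFβ1. *Gmnn* stood at 57.5 (B73) and 70.5 (B87) CPM in Smad4-off and 54.6 and 59.7 CPM in Smad4-on cells under SB505124, and at 46.5 and 42.2 and at 39.96 and 32.2 CPM under TGFβ1. CDT1, which brings the ring to the origin, and geminin, which inhibits CDT1, thus fell together, at log2 fold changes of −0.71 (adjusted p = 0.0243) and −0.67 (adjusted p = 0.0154). Neither passed in Smad4-off cells, where the estimates were −0.58 (adjusted p = 0.0841) and −0.53 (adjusted p = 0.063).

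Of 5 genes of helicase activation, 2 passed in Smad4-on cells and 0 in Smad4-off cells (17.6% and 6.24% of all genes were lower). With so few genes, 0 cannot be told apart from the second share. Levels of *Mcm10* in B73 and B87 were 73.4 and 82.7 CPM (Smad4 off) and 77.97 and 83.1 CPM (Smad4 on) with SB505124, then 60.1 and 49.8 CPM and 55.5 and 39.1 CPM with TGFβ1. MCM10, needed for the activated helicase to start unwinding, had groups that did not overlap (log2 −0.78 ± 0.17, adjusted p = 0.0125). *Cdc45* stood at 46.5 (B73) and 60.6 (B87) CPM in Smad4-off and 49.1 and 58.2 CPM in Smad4-on cells under SB505124, and at 48.5 and 53.999 and at 52.3 and 45.7 CPM under TGFβ1. Here the TGFβ1 and SB505124 libraries overlapped, and in B73 the level with TGFβ1 was slightly above that without, so that the essential helicase partner CDC45 gave only −0.12 ± 0.14 (adjusted p = 0.55). Under SB505124, *Gins2* was at 41.1 and 35.4 CPM in Smad4-off and 38.6 and 33.2 CPM in Smad4-on cells of B73 and B87, against 31.97 and 24.6 CPM and 33.3 and 22.6 CPM under TGFβ1. This GINS subunit passed (log2 −0.38, adjusted p = 0.0461), but exons of *Gse1* on the opposite strand cover 67.3% of its exonic bases and the strand setting of the counting is not stated, so its value is uncertain. *Gins1* (−0.58, adjusted p = 0.0525) and *Gins3* (−0.38, adjusted p = 0.173) did not pass.

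Among the 13 genes for polymerases, the sliding clamp and its loaders, 8 were lower with *Smad4* on and 3 with *Smad4* off (17.6% and 6.24% of all genes). *Dscc1* ran at 11.3 and 13.05 CPM (Smad4 off) and 9.73 and 11.3 CPM (Smad4 on) under SB505124 in B73 and B87, and at 6.38 and 4.78 CPM and 4.64 and 3.47 CPM under TGFβ1. DSCC1 is a subunit of the alternative clamp loader that also helps sister chromatids to stay together, and its fall was the deepest of all members, −1.38 ± 0.23 in Smad4-on cells (SE, edgeR adjusted p = 0.00483) and −1.13 ± 0.22 in Smad4-off cells (adjusted p = 0.0212). It is a low gene, at 68 counts or more in each library, and its groups were far apart. Levels of *Pcna* in B73 and B87 were 208 and 239 CPM (Smad4 off) and 198 and 225 CPM (Smad4 on) with SB505124, then 171 and 153 CPM and 151 and 123 CPM with TGFβ1. PCNA, the clamp itself, was lower in all 4 TGFβ1 libraries (log2 −0.62 ± 0.14, adjusted p = 0.0134, and −0.46 ± 0.14, adjusted p = 0.07, in Smad4-off cells). *Rfc4* stood at 38.04 (B73) and 43.1 (B87) CPM in Smad4-off and 34.8 and 39.7 CPM in Smad4-on cells under SB505124, and at 27.9 and 28.3 and at 24.2 and 20.1 CPM under TGFβ1. Under SB505124, *Pold1* was at 91.05 and 101 CPM in Smad4-off and 91.5 and 112 CPM in Smad4-on cells of B73 and B87, against 67.9 and 63.1 CPM and 62.98 and 49.96 CPM under TGFβ1. Both RFC4, part of the main clamp loader, and the catalytic subunit of polymerase δ passed in Smad4-on cells, at −0.75 (adjusted p = 0.00648) and −0.85 (adjusted p = 0.00572). The other loader subunits *Rfc2* (−0.33, adjusted p = 0.0942) and *Rfc3* (−0.36, adjusted p = 0.127) did not.

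*Pola1* ran at 74.7 and 103 CPM (Smad4 off) and 77.3 and 107 CPM (Smad4 on) under SB505124 in B73 and B87, and at 58.4 and 69.99 CPM and 57.8 and 61.2 CPM under TGFβ1. Levels of *Pole* in B73 and B87 were 137 and 166 CPM (Smad4 off) and 145 and 172 CPM (Smad4 on) with SB505124, then 127 and 127 CPM and 123 and 105 CPM with TGFβ1. Polymerase α, which lays the first DNA, was lower in both Smad4 states (log2 −0.61 and −0.46, adjusted p = 0.00717 and 0.0408), whereas polymerase ε of the leading strand passed in Smad4-on cells only (−0.47, adjusted p = 0.0313, against −0.26, adjusted p = 0.249). That difference between the states was itself small (−0.22, adjusted p = 0.755). The primase subunits *Prim1* (−0.32) and *Prim2* (−0.38), which work bound to polymerase α, did not pass in Smad4-on cells (adjusted p = 0.198 and 0.137). *Fen1* stood at 2.40 (B73) and 2.11 (B87) CPM in Smad4-off and 1.73 and 1.997 CPM in Smad4-on cells under SB505124, and at 1.93 and 1.99 and at 2.35 and 1.84 CPM under TGFβ1. The flap nuclease FEN1 is normally abundant in cycling cells, and these values show no direction. Exons of *Gm10143* on the opposite strand cover 84.2% of its exonic bases, so counts for *Fen1* are uncertain. For every other member but *Gins2*, such overlap was at most 17.4%.

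Of the 4 genes of nucleotide supply and uracil repair, 2 were lower in Smad4-on cells and 0 in Smad4-off cells (17.6% and 6.24% of all genes). Here too, 0 of so few genes cannot be told apart from the second share. Under SB505124, *Tyms* was at 69.6 and 96.95 CPM in Smad4-off and 72.1 and 96.6 CPM in Smad4-on cells of B73 and B87, against 67.3 and 70.4 CPM and 56.8 and 53.4 CPM under TGFβ1. TYMS, which makes thymidylate, was lower with TGFβ1 in Smad4-on cells (log2 −0.60 ± 0.15, adjusted p = 0.0216), though the Smad4-off B87 library with TGFβ1 lay above the Smad4-off B73 library with SB505124. *Ung* ran at 18.2 and 20.998 CPM (Smad4 off) and 13.4 and 17.5 CPM (Smad4 on) under SB505124 in B73 and B87, and at 11.3 and 10.5 CPM and 9.70 and 6.47 CPM under TGFβ1. The uracil glycosylase gene *Ung* had one of the deepest falls (−0.94 ± 0.23, adjusted p = 0.022), with 4 TGFβ1 libraries below the 4 others. Levels of *Rrm2* in B73 and B87 were 372 and 456 CPM (Smad4 off) and 721 and 531 CPM (Smad4 on) with SB505124, then 304 and 309.8 CPM and 530.1 and 347 CPM with TGFβ1. The regulated subunit of ribonucleotide reductase, *Rrm2* stood higher with *Smad4* restored in each of the 4 pairs of libraries, and by more in B73 than in B87. None of its 4 main comparisons passed: TGFβ1 gave −0.52 (adjusted p = 0.0973) and −0.44 (adjusted p = 0.215), and *Smad4* gave 0.57 under SB505124 (adjusted p = 0.311) and 0.50 under TGFβ1 (adjusted p = 0.206). Its partner *Rrm1* differed little, −0.23 in Smad4-on cells (adjusted p = 0.146).

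Of 7 genes that serve chromatin behind the fork, 4 were lower with *Smad4* on and 2 with *Smad4* off (17.6% and 6.24% of all genes). *Uhrf1* stood at 218 (B73) and 269.9 (B87) CPM in Smad4-off and 234 and 288 CPM in Smad4-on cells under SB505124, and at 158 and 155 and at 132 and 114 CPM under TGFβ1. UHRF1 brings the maintenance methyltransferase to newly copied DNA. It was lower in all TGFβ1 libraries, −1.07 ± 0.14 in Smad4-on cells (SE, edgeR adjusted p = 0.00176, the smallest of the members) and −0.64 ± 0.14 in Smad4-off cells (adjusted p = 0.028). Under SB505124, *Hells* was at 158 and 188 CPM in Smad4-off and 148 and 169 CPM in Smad4-on cells of B73 and B87, against 110.3 and 102 CPM and 112 and 94.9 CPM under TGFβ1. *Cdca7* ran at 73.98 and 88.7 CPM (Smad4 off) and 54.3 and 65.9 CPM (Smad4 on) under SB505124 in B73 and B87, and at 55.7 and 51.9 CPM and 41.6 and 27.5 CPM under TGFβ1. HELLS, a chromatin remodeler, and its partner CDCA7 fell with it in Smad4-on cells (−0.62 and −0.80, adjusted p = 0.0118 and 0.0247). *Hells* also passed in Smad4-off cells (−0.70, adjusted p = 0.0163), and *Cdca7* did not (−0.60, adjusted p = 0.104). Levels of *Slbp* in B73 and B87 were 62.99 and 86.7 CPM (Smad4 off) and 63.4 and 80.5 CPM (Smad4 on) with SB505124, then 48.5 and 55.1 CPM and 50.7 and 46.6 CPM with TGFβ1. SLBP binds the stem-loop of histone mRNAs and supplies histones in S phase, and its groups did not overlap (−0.55 ± 0.14, adjusted p = 0.0243). *Casp8ap2* stood at 51.6 (B73) and 68.8 (B87) CPM in Smad4-off and 54.9 and 64.2 CPM in Smad4-on cells under SB505124, and at 51.1 and 59.5 and at 61.7 and 57.9 CPM under TGFβ1. The histone gene activator CASP8AP2 stood at 0.02 ± 0.13 (adjusted p = 0.941). *Chaf1b* and *Nasp*, a histone deposition subunit and a histone chaperone, did not pass (−0.44 and −0.27, adjusted p = 0.111 and 0.278).

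Fork protection, checkpoint and repair genes were lower in 7 of 9 cases in Smad4-on cells and in 2 of 9 in Smad4-off cells (17.6% and 6.24% of all genes). Under SB505124, *Dtl* was at 75.4 and 82.02 CPM in Smad4-off and 62.3 and 77.9 CPM in Smad4-on cells of B73 and B87, against 49.7 and 49.2 CPM and 47.5 and 37.6 CPM under TGFβ1. DTL is the substrate receptor of the ubiquitin ligase that destroys CDT1 once the clamp is on DNA, and it was lower in both Smad4 states (−0.72 and −0.67, adjusted p = 0.0116 and 0.0298). *Wdr76* ran at 37.2 and 43.2 CPM (Smad4 off) and 36.4 and 40.6 CPM (Smad4 on) under SB505124 in B73 and B87, and at 28.4 and 27.9 CPM and 27.4 and 24.3 CPM under TGFβ1. *Wdr76* behaved alike (−0.58 and −0.51, adjusted p = 0.0123 and 0.037). *Clspn* (claspin, a checkpoint mediator), *Tipin*, *Exo1*, *Rad51ap1* and *Ubr7* were lower in Smad4-on cells, with log2 fold changes from −0.74 (*Clspn*) to −0.42 (*Ubr7*). The helicase gene *Blm* (−0.23, adjusted p = 0.19) and the deubiquitinase gene *Usp1* (−0.48, adjusted p = 0.0638) did not pass.

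The 4 G1/S regulators did not act as a block. Levels of *Ccne2* in B73 and B87 were 24.3 and 37.3 CPM (Smad4 off) and 28.5 and 36.7 CPM (Smad4 on) with SB505124, then 17.4 and 25.7 CPM and 21.4 and 24.8 CPM with TGFβ1. Cyclin E2 was lower with TGFβ1 in both states (−0.49 ± 0.13 and −0.51 ± 0.13, edgeR adjusted p = 0.028 and 0.0443), within each line and on top of a higher level in B87. *Ccne1* stood at 21.3 (B73) and 29.04 (B87) CPM in Smad4-off and 27.8 and 32.7 CPM in Smad4-on cells under SB505124, and at 23.996 and 24.96 and at 24.3 and 25.2 CPM under TGFβ1. Cyclin E1, which like cyclin E2 activates CDK2, overlapped between treatments and gave −0.28 and −0.03 (adjusted p = 0.137 and 0.912). Under SB505124, *E2f1* was at 46.2 and 52.4 CPM in Smad4-off and 44.5 and 55.1 CPM in Smad4-on cells of B73 and B87, against 41.99 and 38.95 CPM and 50.99 and 41.96 CPM under TGFβ1. The activator E2F1 did not pass in either state, and its 8 levels overlapped (−0.10 and −0.28, adjusted p = 0.654 and 0.267).

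**Figure D3:**
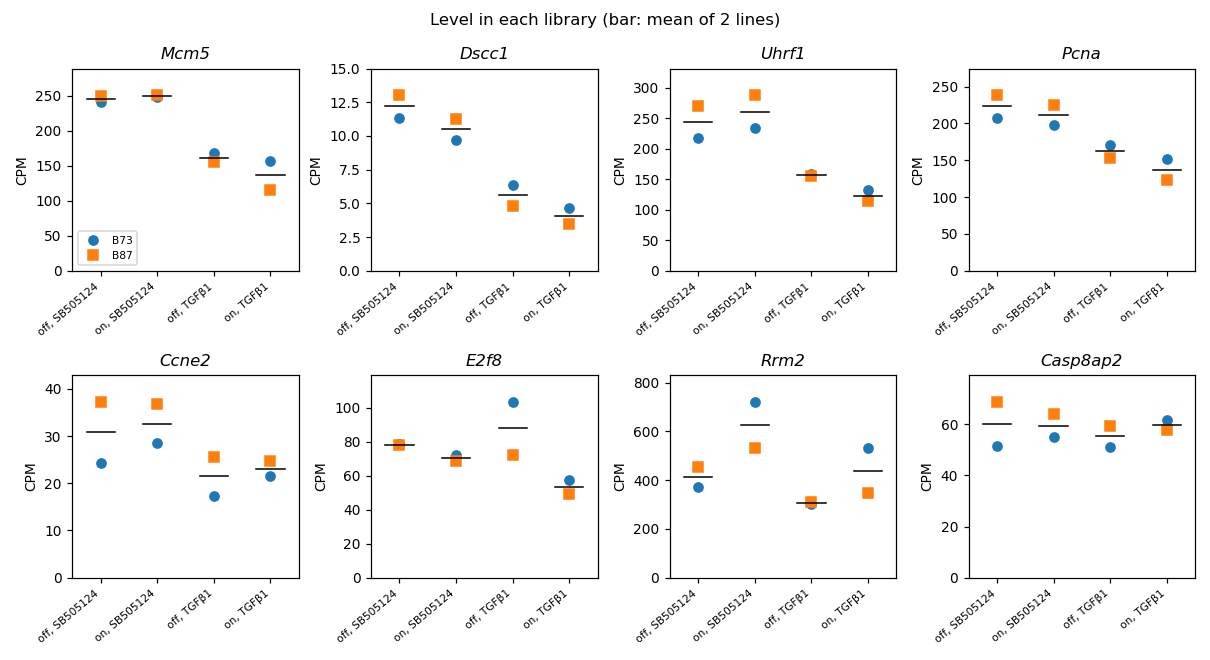
CPM of 8 genes (y axes from 0) in the 4 groups (x axes), circles for B73 and squares for B87, with a bar at the mean of the 2 lines. *Mcm5*, *Dscc1*, *Uhrf1* and *Pcna* are lower in all TGFβ1 libraries. *Ccne2* is lower within each line, *E2f8* is highest in Smad4-off B73 with TGFβ1, *Rrm2* is highest in Smad4-on B73 with SB505124, and *Casp8ap2* shows no separation by treatment.

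E2F8, an atypical E2F that represses S-phase genes, was the single member that differed with *Smad4*. *E2f8* ran at 78.97 and 77.9 CPM (Smad4 off) and 72.4 and 68.5 CPM (Smad4 on) under SB505124 in B73 and B87, and at 104 and 72.3 CPM and 57.3 and 49.3 CPM under TGFβ1. The Smad4-on TGFβ1 libraries were the lowest of all, and the highest was Smad4-off B73 with TGFβ1. Under TGFβ1 it was lower with *Smad4* restored by log2 −0.71 ± 0.13 (SE, edgeR adjusted p = 0.0243), 1 member lower and 0 higher where 3.28% and 3.52% of all genes were. Under SB505124 its estimate was −0.16 (adjusted p = 0.681), and 0 members passed in either direction (0.622% lower and 0.972% higher over all genes; 0 members lower and 1 higher, *Rrm2*, at an unadjusted p under 0.05, and 0 in DESeq2). With TGFβ1, *E2f8* fell in Smad4-on cells (−0.41, adjusted p = 0.0482) and stood at 0.15 in Smad4-off cells (adjusted p = 0.497). The difference between these 2 responses was −0.56 ± 0.18 and did not pass (adjusted p = 0.327). The call under TGFβ1 was lost without the B73 Smad4-off TGFβ1 library (adjusted p = 0.174), without the B73 or B87 Smad4-on TGFβ1 library (0.116 and 0.101), and in the edgeR fit with no replicate block (0.188), and DESeq2 with the line kept it (0.000263).

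For the other members, differences by *Smad4* state were small. Under TGFβ1, 42 of 51 estimates were below 0 with a median of −0.13 (all genes −0.01), and under SB505124 33 were, with a median of −0.03 (all genes 0.00). The first median turned to 0.055 without the B87 Smad4-on TGFβ1 library and went to −0.38 without the B73 one, and the second ranged from −0.19 to 0.12 with 1 library left out, so neither has a settled sign. Within the lines the first median was −0.04 in B73 and −0.28 in B87, and 29 members were lower with *Smad4* restored in both lines (35.7% of all genes). The interaction of *Smad4* and TGFβ1 passed for 0 members in edgeR (0.196% of all genes) and for 0 in DESeq2, and 1 member had an unadjusted p under 0.05 in edgeR. Its median was −0.09, and it was 0.14 without the B87 Smad4-on TGFβ1 library and 0.027 without the B73 Smad4-off SB505124 library, so its sign is not settled either. The TGFβ1 response was deeper with *Smad4* on than with it off for 39 of 51 members. Over all genes the median difference between the 2 responses was −0.01. The responses in the 2 states, which share no library, had a Pearson r of 0.791 and a Spearman rho of 0.838 across the 51 genes, given as a description since the genes are not independent and each line enters both. The counts of 33 and 9 therefore stand beside a test of the difference itself that passed for no member.

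The lines differed in how far the set fell. With TGFβ1 in Smad4-on cells, the median log2 fold change was −0.32 in B73 and −0.79 in B87. The fold change was lower in B87 than in B73 for 51 of 51 members, and for 7437 of the 14301 genes tested. In Smad4-off cells the medians were −0.29 and −0.59, and the fold change was lower in B87 for 50 of 51 (6751 of the 14301 genes). The direction was shared, since 47 of 51 (Smad4 on) and 48 of 51 (Smad4 off) were lower in both lines, against 40.5% and 37.4% of all genes, and 0 were higher in both. A term for the line difference in the TGFβ1 response, fitted over both Smad4 states with 2 residual degrees of freedom, was below 0 in all 51 members, with a median of −0.39 (all genes 0.00). Its unadjusted p was under 0.05 for 32 members, where 4.29% of all genes were below 0 at that level. In edgeR 0 of the 14301 genes passed adjustment (0%, smallest adjusted p 0.340), and 1198 had an unadjusted p under 0.05 in either direction. The deepest estimate was that of *Dscc1* (−0.63) and the shallowest that of *Ccne2* (−0.10).

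**Figure D4:**
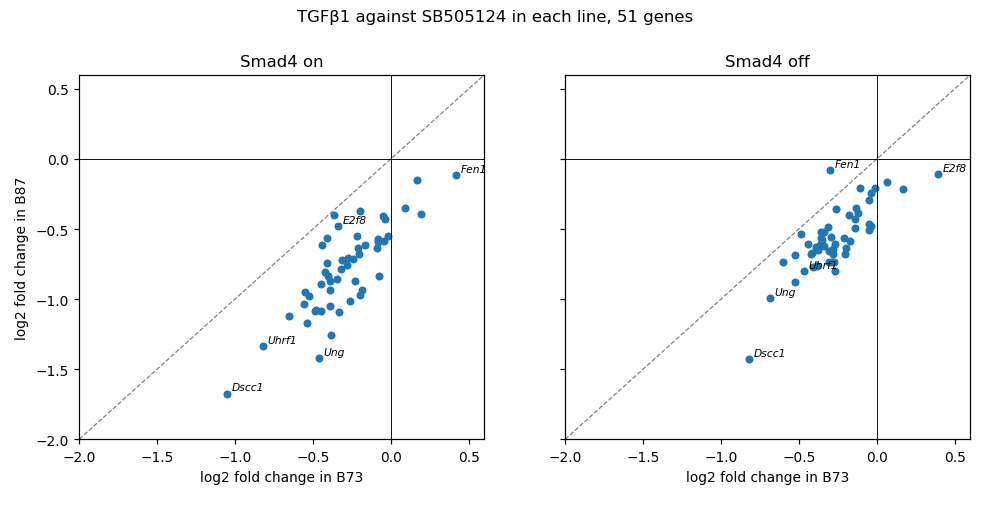
Log2 fold change with TGFβ1 in B87 (y axis) against that in B73 (x axis), 1 point per gene, in Smad4-on (left) and Smad4-off cells (right), with the line of equal change dashed. All 51 points on the left and 50 on the right lie below the dashed line. *Dscc1* is the lowest point in both panels.

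Averaged over the 4 conditions, levels hardly separated the lines, but the average joins differences in opposite directions. Under SB505124 the set mean was higher in B87 (6.37 and 6.30 log2 CPM with *Smad4* off and on) than in B73 (6.11 and 6.10). Under TGFβ1 it was 5.81 and 5.51 in B87 against 5.84 and 5.81 in B73. In Smad4-off cells the lines were thus near each other with TGFβ1 and apart with SB505124. Over all 4 conditions 2 members were higher in B87, *Ccne2* (0.44 ± 0.09, edgeR adjusted p = 0.0178) and *Pola1* (0.32 ± 0.08, adjusted p = 0.0328), and 1 was lower, *Gins2* (−0.34 ± 0.08, adjusted p = 0.0317), while 18.6% of all genes differed. With fits that left out a library, these 3 calls became 0 to 3. A line difference in the *Smad4* response passed for 0 members in edgeR (0.406% of all genes), and 1 had an unadjusted p under 0.05. *Rrm2* came nearest, at −0.69 (unadjusted p = 0.00184, adjusted p = 0.134 in edgeR), its difference by *Smad4* state being larger in B73.

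Per length, the members spanned a wide range of levels. As CPM per kilobase of transcript (RPKM, mean of 8 libraries), *Rrm2* was highest at 161, followed by *Pcna* at 76.5, *Mcm4* at 70.97 and *Mcm3* at 66.1. The ranges of *Pcna* (51.4 to 99.5), *Mcm4* (55.9 to 83.9) and *Mcm3* (39.4 to 82.7) overlapped, so their order is not resolved. At the low end were *Ung* (2.47), *Dscc1* (1.82) and *Fen1* (0.843). Within the helicase ring, *Mcm5* and *Mcm4*, at 49.6 and 70.97 RPKM, had the deepest and the shallowest fall of the ring.

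Other replication genes were more often lower than higher too. Of 52 outside the set, 24 were lower and 2 higher with TGFβ1 in Smad4-on cells (17.6% and 15.6% of all genes) and 14 lower and 0 higher in Smad4-off cells (6.24% and 6.96%), with medians of −0.37 and −0.31. *Lig1*, which seals Okazaki fragments, changed by log2 −1.06 (adjusted p = 0.00265 in edgeR) and *Timeless*, the partner of TIPIN, by −1.25 (adjusted p = 0.000746). Of the origin recognition genes *Orc1* to *Orc6*, 0 were lower in Smad4-on cells and *Orc4* was higher (0.40, adjusted p = 0.0201). Their estimates ranged from −0.27 (*Orc1*) to that of *Orc4*. With so few genes, 0 cannot be told apart from the share of 17.6%. The small polymerase δ subunit *Pold4* rose by 0.62 (adjusted p = 0.00399). The deepest fall was that of the activator gene *E2f2*. Under SB505124, *E2f2* was at 21.3 and 28.9 CPM in Smad4-off and 42.04 and 39.02 CPM in Smad4-on cells of B73 and B87, against 14.8 and 16.5 CPM and 9.90 and 8.62 CPM under TGFβ1. It changed by −2.13 in Smad4-on cells (adjusted p = 0.000289) and −0.68 in Smad4-off cells (adjusted p = 0.0414).

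Genes of G2 and mitosis gave the nearest comparison. With TGFβ1, 44 of 54 were lower and 1 higher in Smad4-on cells (17.6% and 15.6% of all genes) and 12 lower and 0 higher in Smad4-off cells (6.24% and 6.96%), with medians of −0.57 and −0.27, so that the S-phase members (−0.54 and −0.45) were similar to them in the first state and had the lower median in the second. Between Smad4 on and off under TGFβ1, 6 of the 54 were lower against 1 of the 51 (3.28% of all genes), with medians of −0.32 and −0.13. Lower in both lines were 52 of 54 against 29 of 51 (35.7% of all genes). With 1 library left out, an alternative added for this list after seeing the data, the G2/M median stayed between −0.46 and −0.19, whereas that of the S-phase members changed sign, and the 6 calls became 0 without the B73 Smad4-off TGFβ1 library, 2 without the B87 one, and 4 and 1 without the B73 and B87 Smad4-on TGFβ1 libraries. In B73 the G2/M mean fell by 0.463 log2 CPM with TGFβ1 in Smad4-on cells and by 0.14 in Smad4-off cells, where the S-phase mean fell by 0.293 and 0.268. In B87 the falls were 0.773 and 0.409 (G2/M) beside 0.789 and 0.564 (S phase). The difference between the lists was not tested.

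**Figure D5:**
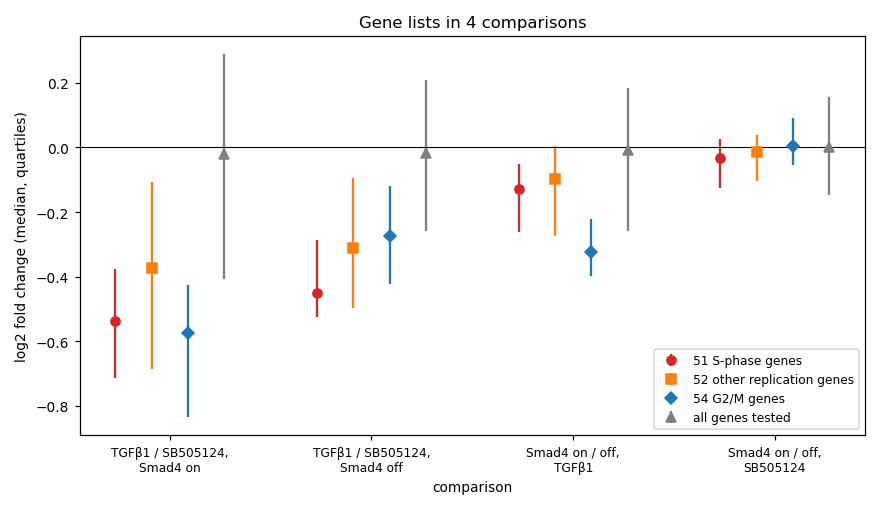
Median log2 fold change (points) with quartiles (bars) of 4 gene lists in 4 comparisons. The 51 S-phase genes (circles) are at −0.54 and −0.45 in the TGFβ1 comparisons and at −0.13 and −0.03 in the Smad4 comparisons, the 54 G2/M genes (diamonds) at −0.57, −0.27, −0.32 and 0.00, and all tested genes (triangles) near 0 throughout.

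Upstream of the members, 2 of 14 tested genes of G1 control were higher and 5 lower with TGFβ1 in Smad4-on cells, beside 15.6% and 17.6% of all genes. In Smad4-off cells 1 was higher and 4 lower, beside 6.96% and 6.24%. *Cdkn1a*, the CDK inhibitor p21, rose in both states. *Cdkn1a* ran at 158 and 107 CPM (Smad4 off) and 197 and 134 CPM (Smad4 on) under SB505124 in B73 and B87, and at 252 and 293 CPM and 385 and 387 CPM under TGFβ1. The rise was 1.24 ± 0.20 in Smad4-on cells and 1.07 ± 0.20 in Smad4-off cells (edgeR adjusted p = 0.00411 and 0.0174). *Ccnd2*, a D cyclin, was lower in both (−1.17 and −1.12, adjusted p = 0.000691 and 0.00243). The CDK inhibitors *Cdkn2c* (−1.36), *Cdkn2d* (−0.77) and *Cdkn1b* (−0.41) were lower in Smad4-on cells too (adjusted p = 0.00111, 0.00251 and 0.0173). They also passed in Smad4-off cells (−0.80, −0.43 and −0.40, adjusted p = 0.0187, 0.0424 and 0.038). The D cyclin gene *Ccnd1* passed in Smad4-on cells only (−0.68, adjusted p = 0.0205, against −0.57, adjusted p = 0.0712). The difference between these responses was −0.12 and did not pass (adjusted p = 0.909). All TGFβ1 libraries of *Ccnd1* were below all its SB505124 libraries. *Myc* was higher in Smad4-on cells (0.63, adjusted p = 0.0374) and did not pass in Smad4-off cells (0.21, adjusted p = 0.512). The list holds 17 genes, and *Cdkn1c*, *Cdkn2a* and *Cdkn2b* had too few counts to be tested. *Cdkn1c* had 1 to 11 counts in a library, and *Cdkn2a* and *Cdkn2b* had 0 in every library. The paper reports that most cell lines from tumors of this mouse model had lost both copies of *Cdkn2a/b*. Whether that holds for B73 and B87 was not tested here.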

How the data were processed

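RNA-seq was measured in 8 libraries. The authors made stranded poly(A) libraries, sequenced single-end reads of 75 bp, trimmed them with Trimmomatic 0.36, aligned them with STAR 2.5.3a to GRCm38 (mm10) and counted them with featureCounts 1.6.3. They deposited raw counts per gene. Settings for strand and multiply aligned reads are not given in the sources used here. Groups came from the sample titles.

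Counts were tested with edgeR 4.0.16 in R 4.3.3 (TMM, filterByExpr, quasi-likelihood test, Benjamini-Hochberg adjustment) in 1 model of 4 groups plus the line, which leaves 3 residual degrees of freedom. The study used DESeq2 and names no covariate. The line was added because every line went through all conditions: same-line libraries deviated together (r from 0.642 to 0.774 over 6 pairs of groups). The SE was taken as the absolute log2 fold change over the root of the F statistic. Per-line fold changes used log2 CPM with a prior count of 2. Nothing says that a line was cultured more than once, so p-values measure the spread between these libraries. In these totals 3 counts are 0.125 to 0.162 CPM, and PCR copies are not told apart. Overlaps between genes were computed from GENCODE M21.

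Alternatives were DESeq2 1.42.0, its size factors in edgeR, fits without the line, 2 other filters, and leaving out each library. The scripts were tested on simulated data. The members, their roles and the other lists were chosen with earlier results of these data known. Values in every library are given for landmark genes of each role and for up to 6 further members per comparison with the largest change among those that passed with the same sign in both lines. *E2f2*, *Lig1*, *Timeless*, *Orc4*, *Pold4* and the G1 control genes were named after their values were seen.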

Additional observations from a re-analysis of the deposited data

How the results depend on the processing

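The direction of the TGFβ1 response was the same under every alternative tried for the medians of the members, and the number of members that passed was not. In Smad4-on cells the number lower was 33, and it was 14 with no replicate block (without the line), 26 in DESeq2 without the line, 34 in DESeq2 with it and 36 without a filter. The share of all genes that was lower moved too, from 17.6% to 7.67%, 11.2%, 15.7% and 9.88%. In Smad4-off cells it was 9, then 0 with no replicate block, 19 in DESeq2 with the line and 29 without a filter (all genes 6.24%, then 0.601%, 6.91% and 4.6%), while the members past 2-fold went from 1 to 0 with no replicate block. Between Smad4 on and off under TGFβ1 the number was 1, then 0 with no replicate block, 2 in DESeq2 with the line and 5 without a filter (either direction over all genes 6.8%, then 0.301%, 11.2% and 6.8%), and under SB505124 it was 0, then 1 without a filter (1.59% and 2.85%). Filters and tools set how many genes enter and how the spread is shared, and the cause of these changes was not tested further.

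Leaving out each library in turn gave 6 to 40 members lower (1 to 10 past 2-fold) in Smad4-on cells, 0 to 24 (0 to 1 past 2-fold) in Smad4-off cells, 0 to 1 for Smad4 under TGFβ1 (0 to 1 past 2-fold) and 0 to 3 for the line. The share of all genes that was lower moved in these fits too. In Smad4-on cells it was under 17.6% in every fit. In Smad4-off cells it fell under 6.24% whenever a Smad4-off library was left out. No such share is given for the 2-fold counts or for the line, so those counts have no background. Medians ranged from −0.38 to 0.055 for Smad4 under TGFβ1 and from −0.19 to 0.12 for Smad4 under SB505124. The interaction median ranged from −0.36 to 0.14. None of these medians has a settled sign. The Smad4 difference under SB505124 in the set mean, −0.04, was −0.14 with the median over members. Genes that did not pass and changed sign with a library left out were, in Smad4-on cells, *Fen1* (−0.036 to 0.34), *Nasp* (−0.57 to 0.0039), *Cdc45* (−0.36 to 0.10), *Casp8ap2* (−0.18 to 0.20) and *E2f1* (−0.31 to 0.10). In Smad4-off cells they were *Gins3* (−0.55 to 0.042), *Ccne1* (−0.18 to 0.15), *Cdc45* (−0.20 to 0.11), *Casp8ap2* (−0.26 to 0.046) and *E2f8* (−0.066 to 0.36). With 2 libraries per group, counts cannot resolve small changes of single genes.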
